A study of Homo sapiens with 32 samples.

Results

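The regions described here are the HNF4α-bound regions of BxPC3, a human pancreatic ductal adenocarcinoma cell line, that had no HNF4α peak in the other lines of the study. Overlapping peaks (by at least 1 bp) of 14 peak lists made with an antibody against all HNF4α isoforms were merged into 78074 regions. A region was kept when it held a peak of all 4 BxPC3 lists and none of the 4 Panc10.05 or 6 ASPC1 lists. This gave 1096 BxPC3-only regions, 1.4% of all merged regions and 12.7% of the 8633 regions found in all 4 BxPC3 lists. Presence of a peak chose these regions, so they were selected on the called peaks themselves (lists the authors filtered by q-value), and their absence from the other lines is a definition and not a result.

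HNF4α was mapped by chromatin immunoprecipitation and sequencing (ChIP-seq) in 3 lines, with 2 libraries in each group. BxPC3 cells carried an inducible P1-α2 or P2-α8 isoform and received 500 ng/mL doxycycline in both cases. Panc10.05 cells carried the same isoforms, with a doxycycline dose of 25 ng/mL in the P1-α2 group and of 12.5 ng/mL in the P2-α8 group. In ASPC1, promoter-directed CRISPR interference (CRISPRi) was used, with the genotypes sgP1 and sgP2 beside the control sgNC. These 14 lists came from the pan-HNF4α antibody. A further 4 lists, from sgNC and sgP2 ASPC1 cells, came from an antibody against P1 isoforms and took no part in choosing the regions. HNF4α in BxPC3 and Panc10.05 was thus induced from a construct, while ASPC1 was examined for its own protein under CRISPRi. The labels do not say whether the lines were clonal or whether replicate libraries came from separate cultures, so p-values measure the spread between these libraries, which may be technical. Each line had its own series of library names, and the labels do not say whether these mark batches. Line therefore cannot be told apart from such a series. Doxycycline dose also differed between BxPC3 and Panc10.05, so line and dose cannot be told apart either.

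HNF4α is a nuclear receptor that binds DNA as a homodimer at direct repeats of an AGGTCA-like half-site, often recognised through a CAAAG core. It is best known for its role in liver, gut and pancreatic epithelium, where it activates genes of lipid, glucose and plasma protein metabolism. One gene gives 2 families of isoforms from separate promoters: P1 isoforms such as α2 carry an N-terminal activation domain that P2 isoforms such as α8 lack. Both families share the DNA-binding domain. In pancreatic cancer HNF4α is associated with the classical, gastrointestinal-like subtype, as opposed to the basal or squamous subtype.

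Few BxPC3-only regions lay over promoters. RefSeq promoter windows of GRCh38.p14 run from 250 bases before to 50 after a start site and were held here for 35116 starts. BxPC3-only regions overlapped 18 of these windows, of which 4 belonged to protein-coding genes. As a share of regions, 1.75% of BxPC3-only regions lay over a window, beside 1.76% of the regions shared with all Panc10.05 lists but no ASPC1 list, 14.002% of those in all 14 lists and 5.85% of all in the 4 BxPC3 lists. The 4 sequences below are the 250 bases before the start, read 5′ to 3′ in the direction of the gene. They are shown because each carries letters of one of the motifs searched, and they were chosen after their values were seen. Several of the 18 windows, that of the protein-coding gene RNF183 among them, held none of the motifs searched and are not shown. Capitals mark the motif letters.
SARDH: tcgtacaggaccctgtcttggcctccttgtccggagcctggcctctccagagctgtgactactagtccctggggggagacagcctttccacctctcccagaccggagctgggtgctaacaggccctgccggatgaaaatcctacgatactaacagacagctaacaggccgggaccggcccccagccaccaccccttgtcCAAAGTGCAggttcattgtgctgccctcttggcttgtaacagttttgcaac
LINC01767: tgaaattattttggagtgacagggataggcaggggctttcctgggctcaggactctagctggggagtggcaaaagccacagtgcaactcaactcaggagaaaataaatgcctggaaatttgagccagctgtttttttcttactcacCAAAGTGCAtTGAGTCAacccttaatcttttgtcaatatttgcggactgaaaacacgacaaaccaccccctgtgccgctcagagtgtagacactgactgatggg
SPRR1B: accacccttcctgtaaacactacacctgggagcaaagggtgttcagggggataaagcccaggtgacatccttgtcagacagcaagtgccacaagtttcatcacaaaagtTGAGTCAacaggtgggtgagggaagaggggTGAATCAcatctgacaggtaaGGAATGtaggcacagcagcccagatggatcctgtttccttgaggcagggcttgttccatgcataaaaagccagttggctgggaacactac
FGD4: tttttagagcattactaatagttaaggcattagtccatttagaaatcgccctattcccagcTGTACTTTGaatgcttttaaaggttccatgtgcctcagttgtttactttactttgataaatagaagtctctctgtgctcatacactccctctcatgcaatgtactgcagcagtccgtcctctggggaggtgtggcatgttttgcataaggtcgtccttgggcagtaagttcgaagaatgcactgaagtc

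The SARDH window lies at chr9:133739956-133740205 on the minus strand. SARDH encodes sarcosine dehydrogenase, a mitochondrial enzyme of choline and glycine metabolism. The BxPC3-only region over it had fold enrichments (the authors' ratio of signal to background at a peak) of 31.2, 14.5, 11.8 and 10.7 in the 4 BxPC3 libraries, in the order P1-α2 replicates 1 and 2, then P2-α8 replicates 1 and 2, which is kept below. The capitals, CAAAGTGCA, match the looser of the HNF4 patterns searched, CAAAGNNCA, and begin 51 bases before the start. The 4 BxPC3 summits stood 37, 46, 22 and 70 bases before it. All 4 summits thus fell within the printed stretch. LINC01767, a long non-coding RNA gene at chr1:56414713-56414962 (plus strand), carried the same CAAAGTGCA 104 bases before its start and, after 1 intervening base, the AP-1 letters TGAGTCA. Its summits stood 21, 66 and 3 bases before the start in the first 3 libraries and 7 bases after it in P2-α8 replicate 2.

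The SPRR1B window lies at chr1:153030953-153031202 on the plus strand. SPRR1B encodes a small proline-rich protein of the cornified envelope of squamous epithelium. It held the AP-1 letters TGAGTCA 141 bases and TGAATCA 111 bases before the start, and the TEAD letters GGAATG 90 bases before it. The summits stood 169, 219, 201 and 249 bases before the start, upstream of all 3 matches. The region over the SPRR1B window had folds of 10.8, 13.1, 8.80 and 8.63. FGD4 encodes a guanine nucleotide exchange factor for CDC42, and its window (chr12:32534072-32534321, plus strand) held the looser HNF4 letters on the opposite strand, as TGTACTTTG, 189 bases before the start. Its summits stood 109, 103, 173 and 149 bases before the start. The region over the FGD4 window had folds of 13.6, 8.60, 7.27 and 8.28. In each library, the SPRR1B and FGD4 folds were below the median of all regions in the 4 BxPC3 lists (19.7, 14.7, 10.9 and 9.47).

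Motif letters were searched on both strands of the 300-base windows. The AP-1 letters TGANTCA were present in 5 of 18 windows under BxPC3-only regions (27.8%), compared with 7.71% of all windows and 14.6% of the 642 windows under any region of the 4 BxPC3 lists. The looser HNF4 letters CAAAGNNCA, a search added after the data were seen, were present in 3 of 18 (16.7%), compared with 5.28% of all windows and 15.0% under any such region. The stricter CAAAGTCCA, which the looser pattern includes, was in 0 of 18 windows, 0.384% of all windows and 3.89% under any such region. The TEAD letters GGAATG and the GATA letters AGATAA were each in 3 of 18 windows (16.7%), beside 14.03% and 10.3% of all windows. An HNF4 direct-repeat search in 2 spellings, whose letters also satisfy the looser pattern, matched 0 of 18 windows and 0.0114% of all. With 18 windows, these shares are descriptions of which letters occur, and a match does not make a site.

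Of the regions in all 4 BxPC3 lists, most were shared with another line. The 2325 regions present in all 14 lists and the 1914 present in all 4 BxPC3 and all 4 Panc10.05 lists but no ASPC1 list are used below as comparison sets, called common regions and Panc10.05-shared regions. Just outside the rule were 312 regions with a peak in exactly 1 other list. That list was from Panc10.05 for 237 of them and from ASPC1 for 75. Single lists behind many of these were Panc10.05 P2-α8 replicate 1 with 88, Panc10.05 P1-α2 replicate 2 with 82, Panc10.05 P2-α8 replicate 2 with 51 and ASPC1 sgNC replicate 1 with 49.

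**Figure D1:**
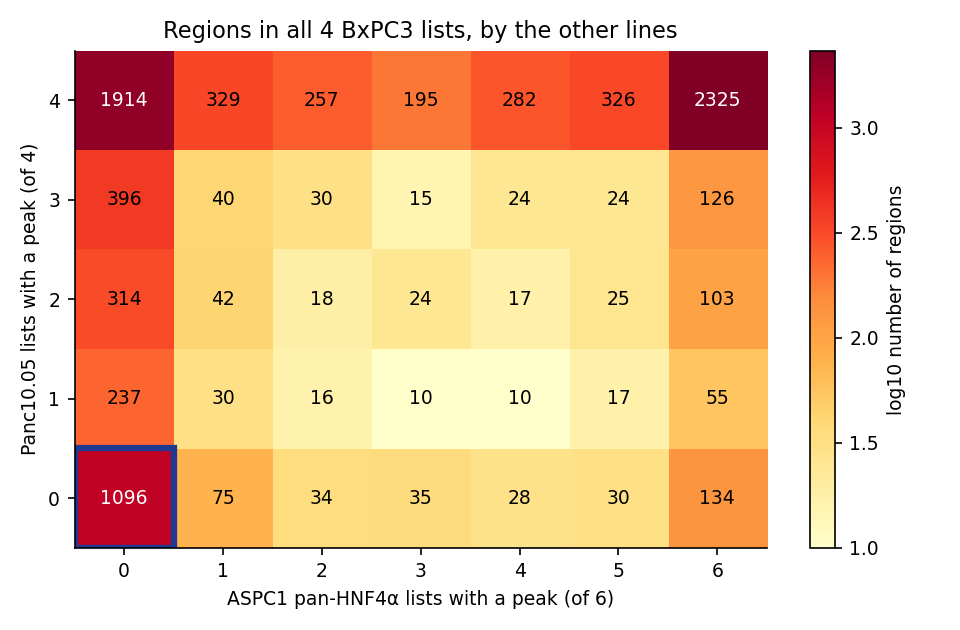
Number of regions present in all 4 BxPC3 lists, by the number of Panc10.05 lists (vertical axis, of 4) and ASPC1 pan-HNF4α lists (horizontal axis, of 6) with a peak; colour is log10 of the number, and the blue frame marks the 1096 BxPC3-only regions. The counts sit at the corners and edges of the grid: 2325 regions were in every list, 1914 in all 4 Panc10.05 lists and no ASPC1 list, and 134 in all 6 ASPC1 lists and no Panc10.05 list.

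The BxPC3 lists set a second edge. The P1-α2 lists held 41808 and 33737 peaks, the P2-α8 lists 12681 and 14666. Missing from 1 BxPC3 list and from all other lines were 1751 regions, of which 1643 lacked a P2-α8 peak and 108 lacked a P1-α2 peak. A further 4697 regions had peaks in both P1-α2 lists, no P2-α8 list and no other line, against 28 with the opposite pattern. In all, 17071 regions had a peak in at least 1 BxPC3 list and in no other line. Without P2-α8 replicate 1 the rule gave 2195 regions, without P2-α8 replicate 2 it gave 1640, and with the P1-α2 lists alone 7437. When all 14 lists were cut to their 11686 peaks of highest fold enrichment, a setting chosen after seeing the data, the rule gave 748 regions, which overlapped 341 of the 1096. These 341 are 31.1% of the BxPC3-only regions and 45.6% of the 748, so most single regions changed under this cut.

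Most BxPC3-only regions had no peak of the other lines within 10 kb. The nearest Panc10.05 peak was a median of 23.8 kb away and the nearest ASPC1 peak 49.1 kb. A peak of either line lay within 1 kb of 43 regions (3.92%), within 10 kb of 390 (35.6%) and within 100 kb of 941 (85.9%). The rule had already removed every region that such a peak overlaps. These distances were not measured for the other sets, so they have no comparison here. The closest gap was 205 bp.

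In 1074 of 1096 regions each BxPC3 list contributed exactly 1 peak. The 4 summits lay within 100 bp of each other in 818 regions (74.6%), and their spread had a median of 64 bp. Over all 8633 regions these values were 77.4% and 58 bp, and for Panc10.05-shared regions 79.8% and 57 bp. Merged widths ran from 301 to 2122 bp with a median of 589.5 bp, beside a median of 1069 bp for the common regions, which merge 14 lists.

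Fold enrichment was low for BxPC3-only regions relative to other regions of the same lists. Because depth is unknown, each region was ranked by fold enrichment within a library among the same 8633 regions, 100 being the strongest. The median percentile of BxPC3-only regions was 32.2 in P1-α2 replicate 1, 31.4 in P1-α2 replicate 2, 36.7 in P2-α8 replicate 1 and 38.9 in P2-α8 replicate 2. The corresponding median fold enrichments were 16.04, 11.9, 9.74 and 8.58. Common regions had median percentiles of 63.5, 57.2, 65.6 and 56.4, and Panc10.05-shared regions 56.8, 61.8, 49.7 and 56.1. In every library the BxPC3-only regions were thus the lowest of the 3 sets, although 20 to 33 of them per library were in the highest decile of the 8633. The 312 regions just outside the rule had medians of 33.4, 37.9, 37.6 and 37.9, which is 6.50 points above those inside it in P1-α2 replicate 2 and within 1.18 points in the other libraries. These values come from the lists the rule used, so they are a description and no test was made.

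**Figure D2:**
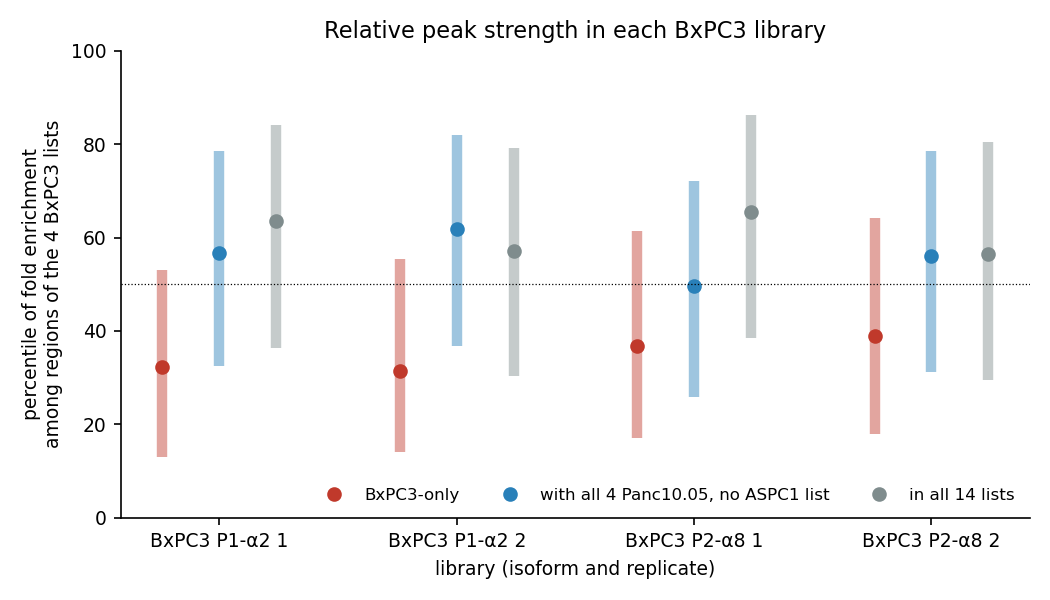
Percentile of fold enrichment among the 8633 regions of the 4 BxPC3 lists (vertical axis) in each BxPC3 library (horizontal axis); points are medians over regions and bars span the first to the third quartile. BxPC3-only regions (red) have medians between 31.4 and 38.9 in the 4 libraries, below both comparison sets in each.

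Some BxPC3-only regions were nonetheless among the strongest peaks of the line. The highest mean percentile belonged to chr13:42832392-42833218, 41.3 kb from FAM216B, with fold enrichments of 43.7 and 30.6 in the P1-α2 libraries and 20.5 and 17.8 in the P2-α8 libraries. It stood at percentiles 96.9, 95.4, 94.55 and 95.4, and the nearest peak of another line was 134.5 kb away. The region chr20:21247501-21248184, 1.22 kb from KIZ, which encodes a centrosomal protein, had folds of 37.2, 47.1, 19.3 and 18.5. Its percentiles of 92.7 to 99.6 were similarly high in all 4 libraries.

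Further strong regions lay inside genes. The region within SFSWAP, a regulator of alternative splicing, had folds of 42.0, 22.9, 22.8 and 21.8, but a peak of another line lay 2.33 kb away. The region within PAPPA, a protease that cleaves insulin-like growth factor binding proteins, had folds of 36.1, 33.4, 14.1 and 17.1. The region within CDH2, which encodes N-cadherin, a mesenchymal adhesion molecule, had folds of 28.3, 28.5, 13.03 and 19.5. It lay 9.18 kb from the CDH2 start, at chr18:28167627-28168278, with the nearest peak of another line 52.8 kb away.

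Others lay outside genes. The region nearest to EPHA3, an ephrin receptor, lay 553.8 kb from it and had folds of 37.8, 19.5, 21.7 and 17.8. The region 14.5 kb from EGLN3, a prolyl hydroxylase that acts on hypoxia-inducible factors, had folds of 34.3, 22.8, 18.2 and 16.5. The region 133.2 kb from MOCS1, an enzyme of molybdenum cofactor synthesis, had folds of 34.1, 23.5, 15.1 and 22.7. The remaining strongest regions, each at a mean percentile of at least 84.9, were nearest to PLCB1 and MAF, described below, ZCCHC8 (a part of a nuclear RNA decay complex), MYBPC1 (a muscle myosin-binding protein), ADGRL2 (an adhesion receptor of the latrophilin family), CNGB3 (a cone photoreceptor channel subunit) and CDH12 (a cadherin). Of these 15 strongest regions, none of those outside chromosome 8 was at a promoter window, beside 1.75% of all BxPC3-only regions outside chromosome 8. With so few regions, their absence cannot be told apart from that share.

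The study's isoform contrast was compared within these regions, since the rule required both isoforms. BxPC3-only regions ranked higher in the P2-α8 libraries than in the P1-α2 libraries. The library medians averaged 31.8 ± 0.539 (SD, n = 2) for P1-α2 and 37.8 ± 1.56 (SD, n = 2) for P2-α8, a difference of -6.00 percentile points (P1-α2 minus P2-α8), larger than the pooled SD of 1.17. The 2 groups did not overlap. The percentiles come from lists that the rule used, and 6 labellings allow no exact permutation p under 0.333, so the difference is a description. Panc10.05-shared regions differed the other way, by 6.35 points (pooled SD 4.06), and common regions by -0.695 points (pooled SD 5.55). The 3 differences come from the same 4 libraries and the same ranking, so they are not independent of each other.

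Counted by region, 284 BxPC3-only regions (25.9%) had both P2-α8 percentiles above both P1-α2 percentiles, beside 18.8% of all 8633 regions. The opposite order held for 132 (12.04%), beside 18.5% of all. With the 8633 regions split by mean percentile into 4 classes of nearly equal size, the share with P2-α8 above was 24.6%, 26.3%, 29.5% and 22.7% in BxPC3-only regions, from the weakest class to the strongest, and 20.3%, 18.7%, 15.7% and 16.8% in the other regions of the 4 lists. The difference was smaller with lists of equal length, a setting that also changed which regions were chosen and ranked. With all lists cut to 11686 peaks, the shares were 20.3% with P2-α8 above and 16.4% with P1-α2 above, beside 17.7% and 18.6% of all regions, and the rank difference was -3.70 points, with library medians of 34.2 and 38.6 for P1-α2 and 38.2 and 42.0 for P2-α8, so that the groups overlapped.

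The regions with the widest isoform gaps illustrate both orders. The region within RAD9B, a paralog of the DNA damage checkpoint gene RAD9A, stood at percentiles 0.591 and 2.54 in the P1-α2 libraries and 50.7 and 89.5 in the P2-α8 libraries. Its folds were 6.51, 6.32, 11.01 and 14.97. The region 64.0 kb from CD2, a T-cell adhesion receptor gene, stood at 2.14, 11.2, 80.2 and 65.2, and the region 24.2 kb from LACTB, a mitochondrial serine beta-lactamase-like protein, at 6.76, 35.1, 81.8 and 90.6. Peaks of other lines lay 1.57, 5.02 and 3.20 kb from these 3 regions.

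In the other direction, the region within RGS17, a regulator of G protein signalling, stood at percentiles 74.6 and 44.1 with P1-α2 and 5.34 and 4.93 with P2-α8, with folds of 26.2, 13.8, 6.54 and 5.54. The region 114.0 kb from HAO2, a peroxisomal hydroxyacid oxidase gene, stood at 41.7, 72.4, 11.8 and 2.02. These regions are extremes of the set and carry no test of their own.

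BxPC3-only regions lay away from transcription start sites. Of the 1031 outside chromosome 8, 12 (1.16%, exact Clopper-Pearson 95% interval 0.603% to 2.02%, counting error only) were within 1 kb of the start of a protein-coding gene. The same held for 11.7% of common regions, 1.38% of Panc10.05-shared regions and 4.78% of all regions in the 4 BxPC3 lists. Within 10 kb of a start were 14.3% of BxPC3-only and 31.2% of common regions, and the median distance was 62.5 kb beside 27.2 kb. The low share at start sites was therefore also seen in the Panc10.05-shared regions, which are likewise absent from ASPC1.

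Far positions were more frequent than in either comparison set. BxPC3-only regions lay over 100 kb from any protein-coding gene in 256 cases (23.4%), beside 16.2% of Panc10.05-shared, 8.82% of common and 14.6% of all regions in the 4 lists. Inside a protein-coding gene were 426 (38.9%), beside 44.4%, 52.7% and 47.1%. Over the other settings tried, the share over 100 kb away ran from 22.3% to 23.8%.

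**Figure D3:**
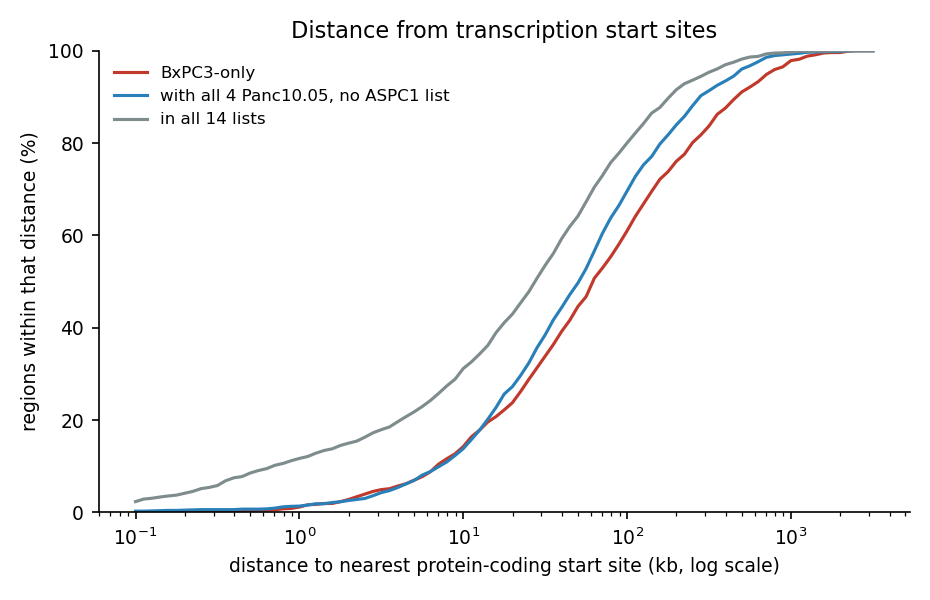
Share of regions (vertical axis, %) within a given distance of the nearest protein-coding start site (horizontal axis, kb, log scale), outside chromosome 8. BxPC3-only and Panc10.05-shared regions run together up to 10 kb (14.3% and 13.8%), where common regions reach 31.2%, and BxPC3-only regions fall below both sets at longer distances.

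The regions were unevenly spread over chromosomes. Taken as a share of the regions in all 4 BxPC3 lists, BxPC3-only regions made up 22.3% on chromosome 13 (51 of 229), 21.2% on chromosome 21 (18 of 85) and 19.5% on chromosome 15 (76 of 390). The lowest shares were 5.36% on chromosome 17, 6.77% on chromosome 19 and 7.99% on chromosome 2, beside 12.7% over all. On chromosome 13 the lists themselves differed by line: it held 2.61% to 2.69% of all peaks in the BxPC3 lists, 1.32% to 1.56% in Panc10.05 and 1.65% to 1.80% in ASPC1. On chromosome 15 these shares were 4.04% to 4.38%, 2.33% to 2.55% and 2.64% to 2.79%. On chromosome 21 the ASPC1 lists had the highest shares, 1.16% to 1.36%, beside 0.907% to 1.02% in BxPC3. The part of peak density per chromosome, or of its copy number, in these counts was not tested.

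Few BxPC3-only regions were close neighbours, as in the Panc10.05-shared set. Another BxPC3-only region lay within 12.5 kb for 80 of them (7.30%), and the largest such groups held 3. Counted within each set, the share with a neighbour was 7.78% of Panc10.05-shared, 12.9% of common and 23.5% of all regions in the 4 lists. Set sizes differ (1096 BxPC3-only, 1914 Panc10.05-shared, 2325 common and 8633 in all), and larger sets offer more possible neighbours. These shares are therefore not matched for set size. Read along the chromosome, 419 (38.2%) followed or preceded another BxPC3-only region with no region of the 4 BxPC3 lists of another kind between them. The share in such runs was not measured for the other sets, so it has no comparison here.

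The longest of these runs lay beyond MAF, the gene of a basic leucine zipper transcription factor of the large MAF family, at chr16:79658239-79892826. It held 8 BxPC3-only regions in 234.588 kb. The BxPC3 lists had 15, 11, 8 and 9 peaks in it, and all other 14 lists, P1-antibody lists included, had 0. The strongest of the 8, at chr16:79751974-79753026 and 151.8 kb from the gene, had folds of 35.3, 23.3, 17.3 and 12.6. The 3 regions between 107.4 and 123.0 kb from the gene formed a group of neighbours, with P1-α2 replicate 1 folds of 13.7, 15.2 and 22.9. MAF was the nearest protein-coding gene of 10 BxPC3-only regions, the highest number of any gene.

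**Figure D4:**
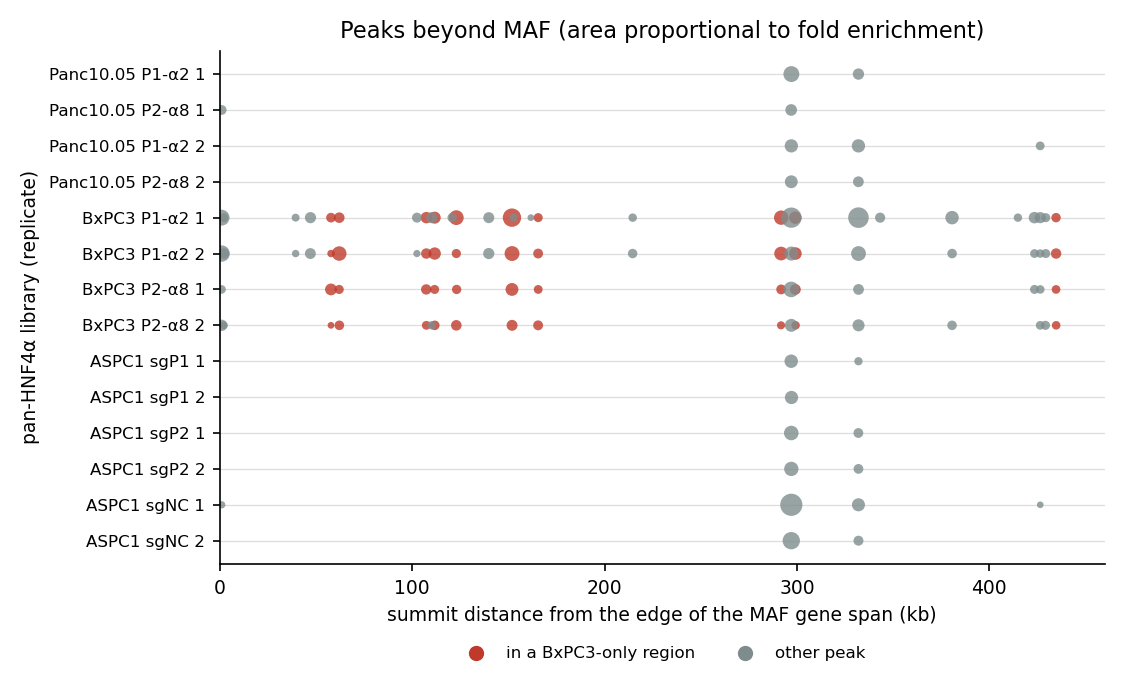
Peak summits up to 460 kb beyond the edge of the MAF gene span (horizontal axis, kb) in each of the 14 pan-HNF4α libraries (vertical axis); circle area is proportional to fold enrichment, red marks peaks in BxPC3-only regions and grey all others. Each BxPC3 library has 10 red peaks, while the other libraries have 1 to 4 peaks in the whole stretch, each at a place where a BxPC3 library also has a grey peak.

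A second stretch without other lines was chr1:119254052-119498231, with 4 BxPC3-only regions, BxPC3 peak counts of 13, 14, 5 and 9, and 0 in all other lists. Its first region is the HAO2-nearest one described above. Runs of 6 regions on chromosome 10 and of 5 each on chromosomes 15 and 16 spanned 2042.74 kb to 3851.09 kb and contained a few peaks of other lines. These runs were found by searching the whole set, and no test was made of their length.

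By gene, 1172 protein-coding genes had at least 1 BxPC3-only region within 50 kb, 120 had at least 2 and 20 at least 3. The same counts were not made for the other sets, and they were not adjusted for gene length. PLCB1, the gene of phospholipase C beta 1, which cuts membrane phosphoinositides downstream of G protein-coupled receptors, was the single gene with more than 3. It had 5 BxPC3-only regions among 8 of the 4 BxPC3 lists. The BxPC3 lists held 23, 16, 14 and 14 peaks there, the Panc10.05 lists 3 and 3 with P1-α2 and 6 and 6 with P2-α8, and the ASPC1 lists 0 or 1. The strongest PLCB1 region, chr20:8464326-8465009, had folds of 31.3, 26.9, 17.1 and 13.4 and was 444.9 kb from the start of this long gene. Its weakest, chr20:8583450-8584007, had folds of 9.34, 10.7, 6.43 and 5.32.

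Other loci with several BxPC3-only regions differed in how much the other lines bound nearby. AUTS2, a large gene linked to neurodevelopment, had 13, 12, 6 and 8 peaks in the BxPC3 lists, 0 in all 4 Panc10.05 lists and 0 to 3 in ASPC1 lists. TLR4, the lipopolysaccharide receptor, had 5, 5, 4 and 4 peaks in BxPC3, 0 or 1 in Panc10.05 and 0 or 1 in ASPC1. TPST1, a tyrosylprotein sulfotransferase gene, had 15, 16, 4 and 7 peaks in BxPC3, 7 to 13 in Panc10.05 and 0 to 3 in ASPC1 lists. Its 3 BxPC3-only regions thus lay in a locus bound in both induced lines. SMAP2, an ARF GTPase-activating protein gene, had 0 peaks in every ASPC1 list and 0 to 3 in Panc10.05.

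**Figure D5:**
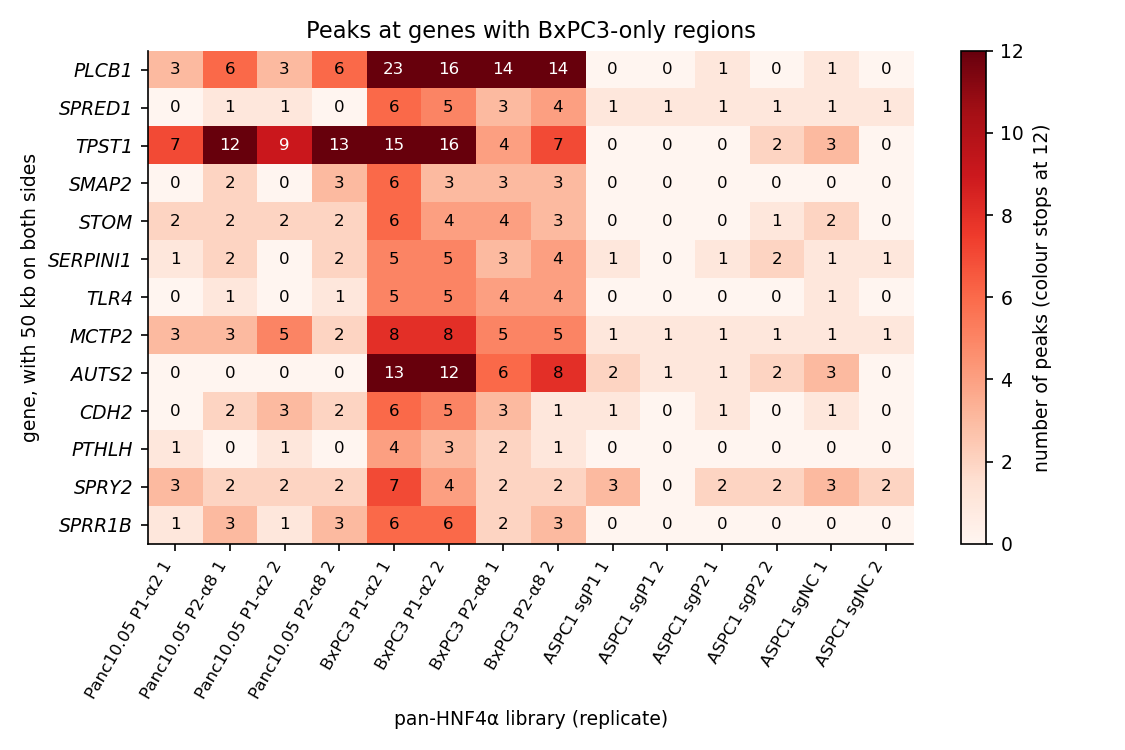
Number of peaks (printed and coloured) within 50 kb of 13 genes (vertical axis) in each of the 14 pan-HNF4α libraries (horizontal axis); the genes have BxPC3-only regions within 50 kb and were chosen after their values were seen. PLCB1 holds 14 to 23 peaks in the BxPC3 lists and at most 6 elsewhere, while TPST1 holds up to 13 in Panc10.05.

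Genes of 12 lists of pathways and programs, 214 genes in all, were searched for BxPC3-only regions within 50 kb. The lists together had 206 regions of the 4 BxPC3 lists nearby, of which 17 (8.25%) were BxPC3-only, beside 12.7% over all regions. The adhesion genes (laminins, integrins and hemidesmosome) had 0 of 27, the endoderm transcription factors 0 of 12, and the NF-κB and cytokine genes 0 of 8. By the limit of 3 counts, 0 of 27 allows a share of up to 11.1%, 0 of 12 up to 25.0% and 0 of 8 up to 37.5%, counting error only.

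The list of ERBB receptors, ligands and feedback regulators had 5 of 21 (23.8%) within 50 kb and 0 of 9 within 10 kb. None of its ligands or receptors was involved: 3 regions lay near SPRED1 and 1 each near SPRY2 and ERRFI1. SPRED1 and SPRY2 are inhibitors of RAS and MAP kinase signalling, and ERRFI1 encodes an inhibitor of the EGF receptor. The SPRED1 locus held 6, 5, 3 and 4 peaks in BxPC3, 0 or 1 in Panc10.05 and 1 in each ASPC1 pan-HNF4α list. Measured from their middles, the 3 SPRED1 regions lay 34.4 to 50.02 kb from the gene (within 50 kb by their nearer edges), the strongest, chr15:38202459-38203169, with folds of 17.9, 15.2, 8.63 and 9.43. The SPRY2 locus held 7, 4, 2 and 2 peaks in BxPC3, 2 or 3 in Panc10.05 and 0 to 3 in ASPC1 pan-HNF4α lists.

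Among subtype genes, the basal and squamous list had 1 of 14, at PTHLH, which encodes parathyroid hormone-related protein. That region, chr12:27971579-27972150, lay inside the gene and 1.89 kb from a start, with folds of 17.9, 14.1, 8.68 and 6.30. The nearest peak of another line was 63.4 kb away. The classical list had 1 of 19, within 50 kb of the transmembrane mucin gene MUC13, where the Panc10.05 lists held 4 to 12 peaks and the ASPC1 pan-HNF4α lists 4 to 8. The protein-coding gene nearest to that region was HEG1, 1.35 kb away. Within 10 kb the classical list had 0 of 11.

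Of the cadherins and EMT factors, 2 of 14 regions were BxPC3-only, the CDH2 region above and 1 within CDH3, which encodes P-cadherin and adjoins the E-cadherin gene CDH1. The CDH3 region had folds of 16.03, 7.22, 9.33 and 6.61 and lay 0.94 kb from a peak of another line. At CDH2 the BxPC3 lists held 6, 5, 3 and 1 peaks, the Panc10.05 lists 0 to 3 and the ASPC1 lists 0 or 1.

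The AP-1 family list had 1 of 20 regions BxPC3-only and the Hippo and TEAD list 1 of 13. The region 5.80 kb from JUN, the AP-1 subunit, had folds of 15.4, 16.7, 6.16 and 6.28, with percentiles of 29.2 and 60.8 for P1-α2 above 3.43 and 10.8 for P2-α8. The region 29.6 kb from CCN2, a secreted matricellular protein and known YAP and TEAD target, had folds of 18.4, 15.6, 14.4 and 16.2. Its percentiles of 44.0, 55.4, 76.7 and 92.5 put both P2-α8 libraries above both P1-α2 libraries. The TGF-β list had 1 of 21, near SMAD3, a transducer of that pathway, and the epithelial transcription factors 2 of 14, near OVOL1 and OVOL2, which encode zinc finger repressors. The protein-coding genes nearest to the SMAD3, OVOL1 and OVOL2 regions were AAGAB, LOC124902693 and MGME1, in that order.

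Known liver and gut targets of HNF4α had 3 of 26 regions BxPC3-only. Between ALB and AFP, the neighbouring genes of albumin and its fetal counterpart alpha-fetoprotein, lay chr4:73432045-73432677, 3.86 kb from the AFP start. Its folds were 25.2, 25.3, 13.8 and 9.28, and its percentiles 71.8, 89.1, 73.3 and 47.7. The ALB locus held 1 peak in each BxPC3 list and 0 in all other lists, P1-antibody lists included. ANPEP, the gene of the brush border enzyme aminopeptidase N, held 2 BxPC3-only regions, 3.85 and 14.7 kb from a start. The ANPEP locus was bound in all lines, with 5 to 9 peaks in Panc10.05 and 5 to 12 in ASPC1 pan-HNF4α lists.

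The P1-antibody lists of ASPC1, which the rule did not use, gave a further view of these positions. A P1-antibody peak overlapped 28% of the 8633 regions, 83.4% of common regions and 0.157% of Panc10.05-shared regions. Of the 1096 BxPC3-only regions 0 overlapped one, which allows a share of up to 0.274%, counting error only. No P1-antibody peak lay within 1 kb of a BxPC3-only region, and 46 regions had one within 10 kb. These lists held 260 to 5200 peaks and came from the line in which the regions have no pan-HNF4α peak, so they are not independent of the rule's exclusion of ASPC1. An absent peak says that none was called at the depth of these lists, which is unknown, and not that HNF4α was not bound.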

How the data were processed

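The 18 immunoprecipitated libraries each had a narrowPeak list, and 14 input libraries were not used here. Per the submitters' processing notes, Bowtie2 2.2.9 and MACS2 2.2.7 were used, and the builds hg38 and mm10 are named with no role; human coordinates were read as hg38, written 1-based. In the deposited lists, fold enrichment is the authors' ratio, p-values and q-values are −log10, and a score accompanies each peak. Peaks were called per library. BxPC3 and Panc10.05 lists start at a −log10 q of 8 and ASPC1 lists at 2, so lists are not matched in stringency. Lists of 11686 to 41808 pan-HNF4α peaks were used, and read depth is unknown.

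Peaks were merged with Python 3.11.15, numpy 2.4.6, pandas 2.3.3 and scipy 1.17.1, and merging was checked against bedtools 2.31.1 and on simulated lists. Percentiles of fold enrichment were taken within each library among the 8633 regions of all 4 BxPC3 lists, and the planned two-sided exact permutation test between isoforms is not used as evidence, since the rule used the same lists. Genes came from RefSeq spans of GRCh38.p14 (20033 protein-coding genes), starts and sequences from RefSeq promoter windows, which held none for chromosome 8. Groups followed the labelled genotype: the titles of the BxPC3 P2-α8 libraries name α8 together with P1.

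Regions and gene lists were chosen with earlier results of these data known. Named regions are the 15 of highest mean percentile, the 3 with the widest isoform gap each way, up to 3 of each gene list, those over promoter windows, the largest groups of neighbours and the genes with most regions; coding-gene windows, LINC01767 and loci beyond these were chosen after their values were seen. Alternatives were stricter −log10 q, a 1 kb margin, summits in place of merged peaks, each library left out, a replicate block, ranking by −log10 p, and other distances; equal list lengths, ignoring ASPC1, Panc10.05 or the P2-α8 lists and the looser HNF4 letters were added after seeing the data. One region that these rules select is not reported here.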

Additional observations from a re-analysis of the deposited data

How the results depend on the processing

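The number of BxPC3-only regions was 755 at a −log10 q of at least 20, 1162 at 8, 1053 with a 1 kb margin, 1084 by summits, 1436 with the ASPC1 lists ignored and 748 with lists of equal length. It was 3965 with the Panc10.05 lists ignored and 7437 with the P2-α8 lists ignored, and 1097 to 2195 when 1 library was left out. Their share of the regions of the BxPC3 lists was 13.5% at a −log10 q of at least 8, 16.5% with equal lengths and 12.7% to 16.97% with 1 library left out. The isoform rank difference was negative in every setting run, from -9.67 at a −log10 q of at least 20 to -3.70 with equal lengths, and -7.05 to -5.49 with 1 library left out; with the replicate block it was -6.00. The replicate numbers do not pair the libraries by the labels. Over the 8633 regions, the replicate 2 minus replicate 1 percentile of P1-α2 had a correlation of 0.158 with that of P2-α8. The share with P2-α8 above was 20.3% with equal lengths, 28.7% ranked by −log10 p, 36.2% with the replicate block (28.1% of all regions) and 24.8% to 45.4% with 1 library left out. The share with P1-α2 above was 16.4% with equal lengths, 18.6% with the replicate block (28.0% of all regions) and 11.96% to 29.7% with 1 library left out. Where the library left out is a BxPC3 one, fewer percentiles must be in order, which by construction makes both orders easier to meet. Within 5 kb of a start were 6.98% of regions; with 1 library left out, the share within 1 kb was 1.08% to 1.30%, inside a gene 38.7% to 40.7%, and over 100 kb away 22.3% to 23.6%. P1-antibody peaks overlapped 4 regions at a −log10 q of at least 20, 3 by summits and 0 to 1 with 1 library left out. Near a listed gene were 7 regions within 10 kb, and 171 had a neighbour within 50 kb. Apart from the construction named, the cause of these changes was not tested.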
